A study of Bos taurus with 6 samples.

Results

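Chromatin modifiers and remodelers, the proteins that write, erase and read marks on histones and DNA or move nucleosomes, were followed in fetal bovine forebrain, liver and rumen. The genes were every row of the count table whose symbol carried a KDM, KMT, HDAC, SIRT, CBX, PCGF, SMARC, ARID, CHD, BRD, DNMT, TET or UHRF stem with its number, or was EZH1, EZH2, EED, SUZ12, RING1, RNF2 or BMI1. The rule gave 79 of the 14179 symbols. It used names only, but was chosen with earlier results of these data known. All 79 passed the filter on low counts, and 0 were without counts. No TET symbol was among them, and TET genes were not analysed here. UHRF1BP1L, a lipid transfer protein that RefSeq lists as BLTP3B, came in through its name and is not a chromatin protein, and SIRT3, SIRT4 and SIRT5 are sirtuins that act in mitochondria.

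Poly(A) RNA came from Holstein fetuses of genotype WT aged 90 days (13 to 16 cm crown to rump), taken at a slaughterhouse. Forebrain, liver and rumen, the fermentation chamber of the ruminant foregut, had 2 libraries each, all labelled male. The labels count 2 males among the 4 fetuses, so the 6 libraries stem from at most 2 animals, and which animal gave which library is not stated. The p-values therefore measure the spread between these libraries, which may be technical.

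In the mammalian embryo these families hold patterns of gene activity through cell division. DNMT1 with its partner UHRF1 copies DNA methylation onto new strands at replication, whereas DNMT3A and DNMT3B write it anew. Polycomb repressive complex 2 (PRC2) methylates lysine 27 of histone H3 through EZH1 or EZH2, and Polycomb repressive complex 1 (PRC1) reads that mark and ubiquitylates histone H2A. SWI/SNF complexes slide nucleosomes and are known in mouse to exchange subunits when neural progenitors become neurons. HDAC1 and HDAC2 are close relatives that sit in the same deacetylase complexes.

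Total counts ranged from 10271024 in Forebrain 1 to 18528958 in Liver 2, and the chromatin genes took 0.4998% (Liver 1) to 0.600% (Liver 2) of them. Levels are CPM, counts divided by the TMM-scaled library size, on which scale 3 counts in a library are 0.193 to 0.244 CPM. These floors cover counting error only. RefSeq places the span of another coding gene over ARID5A, BRD3, CBX1, DNMT3A, HDAC7, KDM5C, PCGF2, SIRT3, SMARCA4 and UHRF1. With the strand setting unknown, how many of their reads are shared cannot be told. Marker genes went with the labels. Neuronal markers summed to 12441 and 11852 CPM in forebrain against 433 and 464 in rumen and 82.9 and 64.1 in liver, and 5 and 8 of the 13, NEUROD2, NEUROD6, GAD1 and SLC17A6 among them, were at 0 in both libraries of rumen and of liver. Hepatocyte markers summed to 238557 and 202764 CPM in liver and at most 137 elsewhere. Squamous epithelium markers summed to 15068 and 12395 CPM in rumen against at most 227. In such whole tissues, fewer cells of a type and less RNA per cell cannot be told apart.

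The liver libraries stood apart from each other. Of 68 chromatin genes with a mean of at least 100 counts, 8 were over 2-fold higher in Liver 1 and 11 over 2-fold higher in Liver 2, against 2 such genes in forebrain and 0 in rumen. The heterochromatin reader CBX1 had 21.7 CPM in Liver 1 and 1.80 CPM in Liver 2, and the H3K4 demethylase KDM5A 38.9 against 6.42 CPM. BRD3, a bromodomain reader of acetylated histones, had 91.3 against 21.1 CPM. The opposite order held for SIRT5, at 55.9 and 169 CPM, and for EZH2, at 135 and 373 CPM. Across the 68 genes the SD of the log2 ratio of the pair was 0.97 in liver, 0.33 in forebrain and 0.25 in rumen. Over all 8815 genes at that depth it was 0.99, 0.36 and 0.39 in the same order. Erythroid markers summed to 150111 and 58389 CPM and macrophage markers to 1059 and 456 CPM in Liver 1 and 2, and the part of these cells in the difference was not tested.

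**Figure D1:**
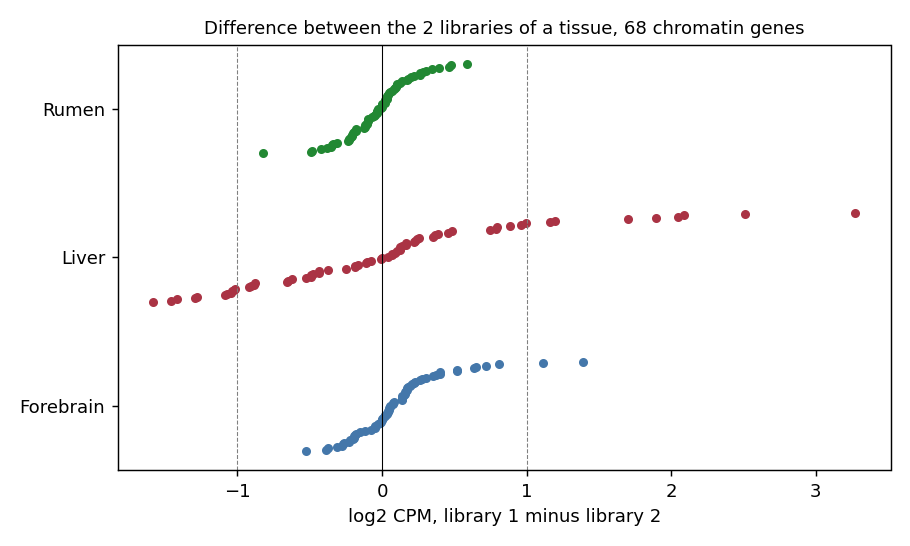
Difference in log2 CPM between library 1 and library 2 of each tissue, 1 point for each of 68 chromatin genes, with dashed lines at a 2-fold difference. Liver points spread from -1.58 to 3.27, rumen points from -0.82 to 0.59.

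Each pair of tissues was compared with edgeR's quasi-likelihood test over all 11478 genes that passed the filter, at an adjusted p of 0.05. The aim was to ask which chromatin genes set the tissues apart. All 3 comparisons came from 1 fit of the 6 libraries, with 1 spread per gene shared by the tissues. The wide liver pair thus also entered rumen against forebrain. Liver against forebrain gave the most calls. There, 30 of the 79 genes were higher in liver and 11 lower (38.0% and 13.9%), where 30.5% and 27.3% of all tested genes were called. Rumen against forebrain gave 18 higher and 8 lower (22.8% and 10.1%), against 20.3% and 21.5% of all genes. Rumen against liver gave 11 higher and 16 lower (13.9% and 20.3%), against 21.2% and 21.8%. Counted in either direction, the shares of chromatin genes called in rumen against forebrain, rumen against liver and liver against forebrain were 32.9, 34.2 and 51.9%, beside 41.8, 43.0 and 57.8% of all tested genes. The median absolute log2 fold change of the chromatin genes was 0.58, 0.68 and 1.05 in the same order, beside 1.04, 1.05 and 1.45 over all tested genes. These are descriptions, with no test of the list, and the 3 comparisons share libraries. A fit of only the tissues compared kept 26 of 26 calls in rumen against forebrain and added 18. It kept 18 of 27 calls in rumen against liver and 34 of 41 in liver against forebrain, and added 0 to each.

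The split by direction moved with the scaling where liver was compared. Of the calls in rumen against liver, 40.7% were higher in rumen with TMM, 51.9% with upper-quartile scaling and 62.1% with total counts alone. In liver against forebrain 73.2% were higher in liver with TMM, 63.6% with RLE, 61.7% with upper-quartile scaling and 47.7% with total counts. Total counts shifted the median log2 fold change of all genes by -0.15 in rumen against forebrain, 0.29 in rumen against liver and -0.47 in liver against forebrain, and upper-quartile scaling shifted it by 0.11 in rumen against liver. No called chromatin gene changed direction under any alternative or left-out library that was run.

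**Figure D2:**
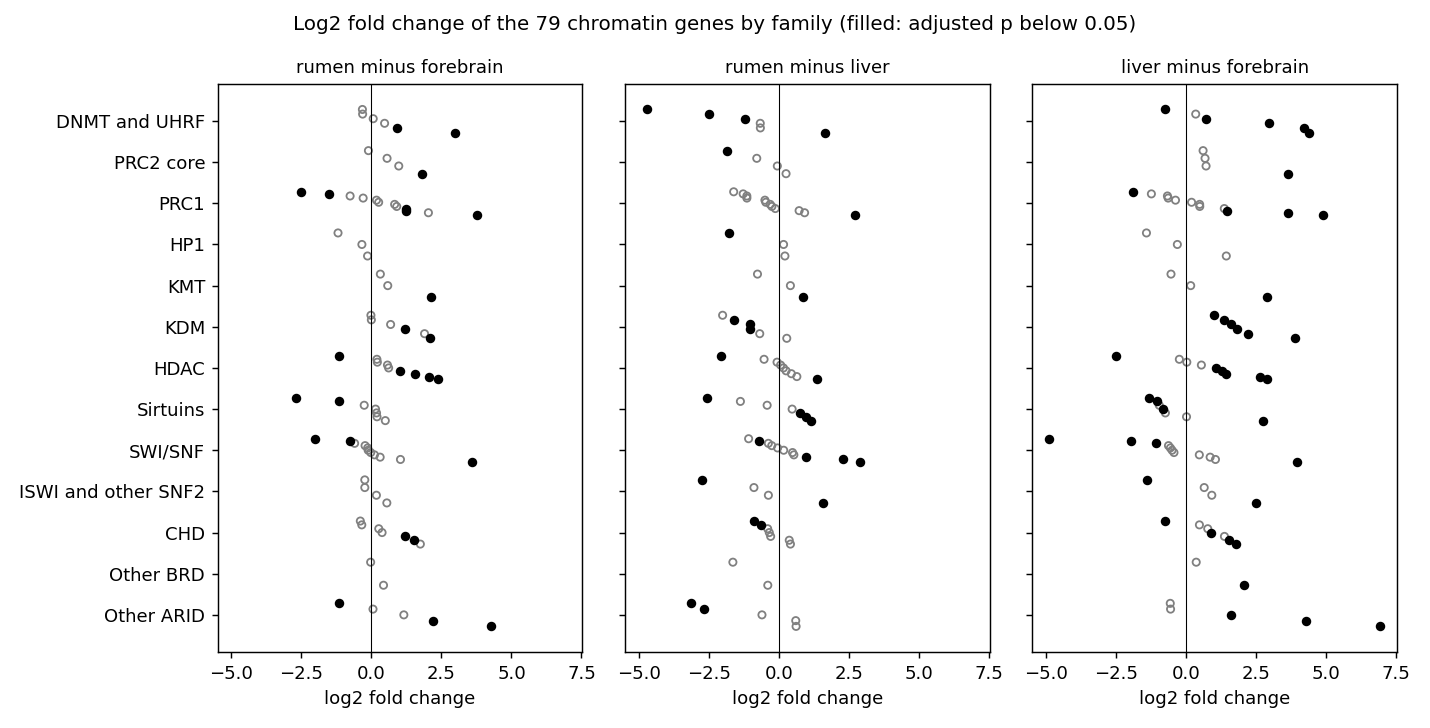
Log2 fold change (x axis, in 3 comparisons) of each chromatin gene, in rows by family, with filled points past an adjusted p of 0.05. The points lie on both sides of 0 in most families, whereas all 6 KDM genes are filled and right of 0 in liver minus forebrain.

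A fit with 1 library left out had 2 residual degrees of freedom in place of 3. Its shared spread came only from the tissues that still had both libraries. Calls that held without a Liver library therefore do not show that the liver libraries agree. In rumen against forebrain, 7 and 6 of 26 calls held without Forebrain 1 and 2, 26 and 26 without Liver 1 and 2, and 9 and 6 without Rumen 1 and 2. Calls that held without each library in turn there were those of HDAC1, HDAC7, SMARCD2, SMARCD3 and UHRF1. In rumen against liver, 18 and 19 of 27 calls held without Forebrain 1 and 2, 26 and 27 without Liver 1 and 2, and 10 and 10 without Rumen 1 and 2. Calls that held without each library in turn there were those of DNMT1, DNMT3A, HDAC6, KDM4A, PCGF2, SMARCA1, SMARCA2, SMARCAD1 and SMARCD3. In liver against forebrain, 26 and 21 of 41 calls held without Forebrain 1 and 2, 39 and 39 without Liver 1 and 2, and 31 and 31 without Rumen 1 and 2. Calls that held without each library in turn there were those of ARID3A, ARID3B, CHD1, DNMT1, EZH2, HDAC1, HDAC2, HDAC6, HDAC7, KDM4A, KDM5C, KMT5A, PCGF2, SIRT7, SMARCA1, SMARCA2, SMARCAD1, SMARCD2, SMARCD3, SMARCE1 and UHRF1. In rumen against forebrain, leaving out a Liver library raised the calls from 26 to 41 with either one. A positive log2 fold change means higher in rumen where rumen is compared, and higher in liver where liver is compared with forebrain. Where a call below is given with its adjusted p, a second p, written as up to, follows. It is the highest adjusted p over the 6 fits that each left out 1 library.

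Of the DNA methylation genes, DNMT1, UHRF1 and DNMT3B were highest in liver and DNMT3A was highest in rumen. DNMT1, the maintenance methyltransferase, had 20.3 and 19.2 CPM in forebrain, 158 and 150.1 CPM in liver and 27.0 and 27.7 CPM in rumen. Both liver libraries lay far above the other 4, 7.78-fold above forebrain (log2 fold change 2.96 ± 0.22 (SE), adjusted p = 7.65e-05, up to 0.00338) and 5.62-fold above rumen (log2 fold change -2.49 ± 0.21 (SE), adjusted p = 0.000256, up to 0.00924). Its partner UHRF1, which recognises hemimethylated DNA, stood at 4.96 and 6.64 CPM in forebrain, 125 and 89.5 CPM in liver and 45.6 and 46.7 CPM in rumen. The 3 tissues did not overlap, with liver highest and forebrain lowest. ARRDC5, which overlaps UHRF1, had at most 1.09 CPM in any library. UHRF1 was 7.92-fold higher in rumen than in forebrain (log2 fold change 2.99 ± 0.31 (SE), adjusted p = 0.000524, up to 0.0134) and 2.32-fold lower in rumen than in liver (log2 fold change -1.22 ± 0.26 (SE), adjusted p = 0.0106, up to 0.0948). DNMT1 itself was 1.38-fold of forebrain in rumen and did not pass there (log2 fold change 0.47 ± 0.22 (SE), adjusted p = 0.123).

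DNMT3A, a writer of new methylation, ran the other way, at 94.5 and 85.1 CPM in forebrain, 51.7 and 54.6 CPM in liver and 156 and 181 CPM in rumen. Rumen was the highest tissue and liver the lowest, without overlap. It was 1.88-fold higher in rumen than in forebrain (log2 fold change 0.91 ± 0.20 (SE), adjusted p = 0.0122, up to 0.117) and 3.17-fold higher than in liver (log2 fold change 1.66 ± 0.21 (SE), adjusted p = 0.00112, up to 0.0192). Of all 79 genes it was the only one called higher in rumen than in both other tissues (1.27%, against 8.20% of all tested genes), a count that ranged from 0 to 8 over the alternatives run. DNMT3B, the other writer, was scarce outside liver, at 1.22 and 0.650 CPM in forebrain, 32.5 and 6.68 CPM in liver and 0.918 and 0.546 CPM in rumen. Liver was above both tissues, 26.2-fold above rumen (log2 fold change -4.71 ± 1.01 (SE), adjusted p = 0.00956, up to 0.0819) and 20.9-fold above forebrain (log2 fold change 4.39 ± 0.97 (SE), adjusted p = 0.00758, up to 0.0673), while its own libraries lay far apart. The call in rumen against liver was also lost with limma-voom. UHRF2, a relative of UHRF1, had 53.5 and 47.3 CPM in forebrain, 70.5 and 95.4 CPM in liver and 49.3 and 56.0 CPM in rumen, and passed only in liver against forebrain (log2 fold change 0.72 ± 0.25 (SE), adjusted p = 0.0412, up to 0.227), a call also lost with DESeq2, RLE, upper-quartile and total-count scaling, the replicate block and a fit of those tissues alone. UHRF1BP1L passed in none of the comparisons (adjusted p = 0.574, 0.229 and 0.485 in rumen against forebrain, rumen against liver and liver against forebrain).

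Genes of DNA replication and mitosis had the same order of tissues as UHRF1. Their 23 measured markers summed to 470.2 and 472 CPM in forebrain, 1214 and 1218 in rumen and 5166 and 3822 in liver, with none at 0 in any tissue. Of these, 17 were higher in rumen than in forebrain and 22 higher in liver than in forebrain. The part of dividing cells in the levels of DNMT1, UHRF1, EZH2 or KMT5A was not tested.

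**Figure D3:**
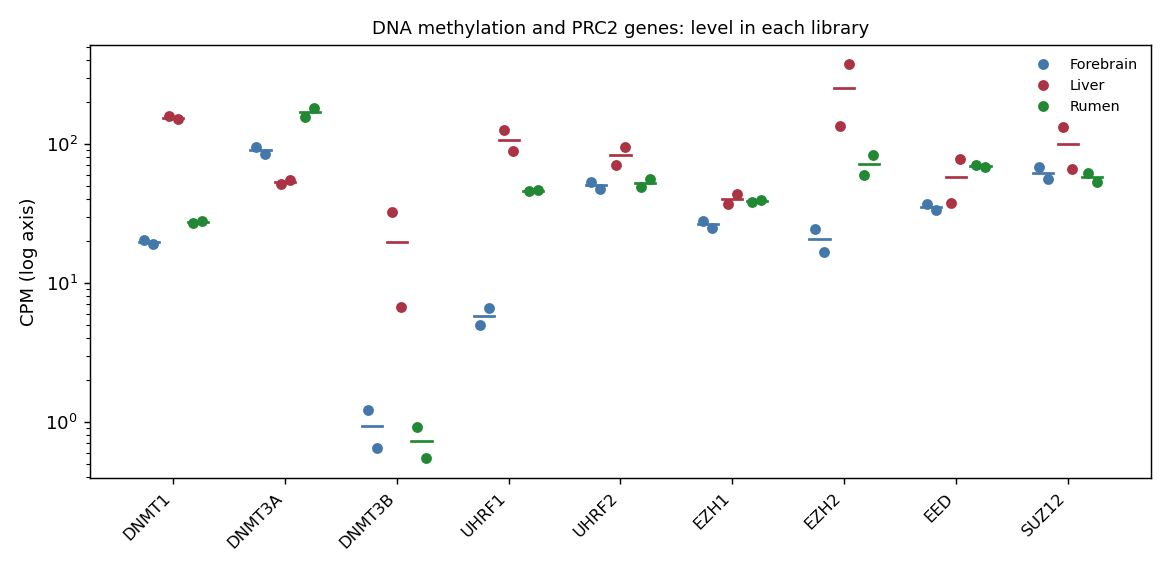
CPM (log axis) of DNA methylation and PRC2 genes, 2 points for the 2 libraries of each tissue and a bar at their mean. DNMT1 and UHRF1 are highest in liver, DNMT3A in rumen, and EZH2 spreads from 135 to 373 CPM within liver.

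Accessory subunits of PRC2 outside the symbol rule were not counted with its genes here. Of the 4 PRC2 genes that matched the rule, the catalytic subunit EZH2 was the only one called in any comparison. It had 24.3 and 16.8 CPM in forebrain, 135 and 373 CPM in liver and 59.3 and 83.7 CPM in rumen, with all 3 tissues apart. EZH2 was 3.48-fold higher in rumen than in forebrain (log2 fold change 1.80 ± 0.51 (SE), adjusted p = 0.0277, up to 0.169), 3.56-fold lower in rumen than in liver (log2 fold change -1.83 ± 0.49 (SE), adjusted p = 0.0224, up to 0.154) and 12.4-fold higher in liver than in forebrain (log2 fold change 3.63 ± 0.53 (SE), adjusted p = 0.00135, up to 0.0208). The call in rumen against forebrain was also lost with limma-voom, and that in rumen against liver in a fit of those tissues alone. EZH1, the catalytic subunit typical of cells that no longer divide, had 27.97 and 24.9 CPM in forebrain, 36.8 and 43.7 CPM in liver and 38.5 and 39.3 CPM in rumen and passed in no comparison (adjusted p = 0.114 in rumen against forebrain and 0.0715 in liver against forebrain). EED, which binds the methyl mark, had 37.0 and 33.6 CPM in forebrain, 37.6 and 78.0 CPM in liver and 70.4 and 68.3 CPM in rumen, and SUZ12, which holds the complex together, 68.5 and 55.5 CPM in forebrain, 132 and 66.2 CPM in liver and 61.5 and 53.5 CPM in rumen. Neither passed in any comparison, the lowest adjusted p being 0.0668 for EED in rumen against forebrain. The rumen libraries lay between the liver libraries for EED, and Forebrain 1 did so for SUZ12.

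PRC1 genes were called in both directions. Against forebrain, rumen gave 3 higher and 2 lower of 12 (median log2 fold change 0.54), and liver 3 higher and 1 lower (0.34), where 20.3% and 21.5% (rumen) and 30.5% and 27.3% (liver) of all tested genes were called higher and lower. In rumen the counts ranged from 0 to 5 higher and 0 to 3 lower with 1 library left out, at 0 without either Forebrain library and highest without either Liver library. In liver they ranged from 0 to 3 higher and 1 to 4 lower, with 0 higher without Forebrain 2 and the most lower without Liver 1. The chromobox reader CBX2 was near the floor in forebrain, at 0.325 and 0.217 CPM in forebrain, 12.1 and 4.69 CPM in liver and 2.53 and 4.99 CPM in rumen. It was higher in rumen than in forebrain (log2 fold change 3.76 ± 1.02 (SE), adjusted p = 0.0191, up to 0.175) and higher in liver than in forebrain (log2 fold change 4.90 ± 0.90 (SE), adjusted p = 0.00245, up to 0.0543), sizes that rest on 4 and 3 reads in Forebrain 1 and 2. Of the ubiquitin ligases, RING1 was higher outside forebrain, at 50.5 and 53.3 CPM in forebrain, 95.6 and 194 CPM in liver and 113 and 131 CPM in rumen (log2 fold change 1.23 ± 0.35 (SE), adjusted p = 0.0276, up to 0.152 in rumen). RNF2, its paralogue, was lower in rumen than in forebrain, at 58.1 and 35.1 CPM in forebrain, 49.8 and 22.03 CPM in liver and 16.8 and 15.8 CPM in rumen (log2 fold change -1.52 ± 0.46 (SE), adjusted p = 0.0355, up to 0.233), a call also lost with limma-voom. Their PCGF partners differed as well. PCGF2 was scarce in liver, at 76.4 and 87.4 CPM in forebrain, 15.0 and 28.6 CPM in liver and 150.0 and 141 CPM in rumen, 6.63-fold higher in rumen than in liver (log2 fold change 2.73 ± 0.33 (SE), adjusted p = 0.000981, up to 0.0142) and 3.73-fold lower in liver than in forebrain (log2 fold change -1.90 ± 0.33 (SE), adjusted p = 0.00273, up to 0.0263). PSMB3, which overlaps PCGF2, had 88.3 and 110.4 CPM in forebrain, 89.2 and 80.8 in rumen and 93.0 and 52.3 in liver. BMI1, the PCGF paralogue known from stem cell renewal, had 15.0 and 11.5 CPM in forebrain, 9.75 and 1.73 CPM in liver and 1.38 and 3.28 CPM in rumen and was 5.70-fold lower in rumen than in forebrain (log2 fold change -2.51 ± 0.82 (SE), adjusted p = 0.0463, up to 0.242), a call also lost with upper-quartile scaling, limma-voom and the older form of the test.

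CBX8 had 5.12 and 4.91 CPM in forebrain, 5.66 and 8.35 CPM in liver and 12.9 and 10.4 CPM in rumen. It was higher in rumen than in forebrain (log2 fold change 1.22 ± 0.41 (SE), adjusted p = 0.0492, up to 0.229), but not with RLE or total-count scaling, without the filter, with limma-voom, with the replicate block or with the older form of the test. CBX6 had 0.894 and 0.577 CPM in forebrain, 16.8 and 1.93 CPM in liver and 3.90 and 2.11 CPM in rumen and was higher in liver than in forebrain (log2 fold change 3.64 ± 1.21 (SE), adjusted p = 0.0365, up to 0.182), a call lost without any library but Liver 2, with total counts, with limma-voom and in a fit of those tissues alone. CBX7, PCGF1, PCGF3, PCGF5 and PCGF6 passed in none of the comparisons. Among the heterochromatin protein 1 genes, which bind methylated lysine 9 of histone H3, CBX3 had 212 and 263 CPM in forebrain, 222 and 162 CPM in liver and 200.4 and 232 CPM in rumen and passed in no comparison. CBX5 was lower in rumen than in liver (log2 fold change -1.78 ± 0.60 (SE), adjusted p = 0.0493, up to 0.224), with 36.8 CPM in Liver 1 and 10.98 in Liver 2, and lost that call in each of 6 further settings, total counts and upper-quartile scaling among them. CBX1 passed in no comparison. Reads of CBX1 and CBX3 can be shared with processed copies, which human has, so their levels are uncertain.

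HDAC1 and HDAC2, the paired catalytic subunits of the NuRD and Sin3 complexes, had opposite orders of tissues. HDAC1 had 22.9 and 23.7 CPM in forebrain, 189 and 161 CPM in liver and 133 and 109.6 CPM in rumen. Forebrain was low in both libraries, 5.20-fold below rumen (log2 fold change 2.38 ± 0.23 (SE), adjusted p = 0.000398, up to 0.0123) and 7.49-fold below liver (log2 fold change 2.90 ± 0.23 (SE), adjusted p = 0.000101, up to 0.00399). HDAC2 was the reverse, at 379 and 380.3 CPM in forebrain, 84.4 and 48.5 CPM in liver and 175 and 163 CPM in rumen. It was highest in forebrain and lowest in liver, 2.24-fold lower in rumen than in forebrain (log2 fold change -1.16 ± 0.28 (SE), adjusted p = 0.0163, up to 0.131) and 2.55-fold higher in rumen than in liver (log2 fold change 1.35 ± 0.29 (SE), adjusted p = 0.00961, up to 0.0721). HDAC3, the catalytic subunit of the NCoR complex, had 49.0 and 54.6 CPM in forebrain, 44.5 and 43.3 CPM in liver and 69.9 and 50.1 CPM in rumen and passed in no comparison.

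HDAC6, a mostly cytoplasmic deacetylase of tubulin, was high in liver, at 67.5 and 57.6 CPM in forebrain, 325 and 458 CPM in liver and 85.5 and 100.4 CPM in rumen. It was 4.21-fold lower in rumen than in liver (log2 fold change -2.07 ± 0.25 (SE), adjusted p = 0.000973, up to 0.0231) and 6.26-fold higher in liver than in forebrain (log2 fold change 2.65 ± 0.26 (SE), adjusted p = 0.000229, up to 0.00655). HDAC7, a class IIa enzyme known from endothelium, was low in forebrain, at 15.3 and 15.4 CPM in forebrain, 42.9 and 39.4 CPM in liver and 64.8 and 63.9 CPM in rumen. Rumen stood 4.196-fold above forebrain (log2 fold change 2.07 ± 0.24 (SE), adjusted p = 0.000831, up to 0.0196). SLC48A1, which overlaps HDAC7, ran the other way, with 16.0 and 18.4 CPM in rumen and 33.7 and 33.1 in forebrain. Endothelial markers (7, none at 0 throughout a tissue) summed to 289 and 251 CPM in rumen, 114 and 139 in forebrain and 934 and 442 in liver, 4 of them being higher in rumen than in forebrain, and their part in HDAC7 was not tested. HDAC10 and HDAC11 were also lower in forebrain than in both other tissues, with rumen 2.91-fold and 2.03-fold higher (adjusted p = 0.0295, up to 0.174, and 0.0433, up to 0.260). HDAC11 did not pass in rumen against forebrain with RLE, total counts or the replicate block. The liver call of HDAC10 (adjusted p = 0.0414, up to 0.207) was lost without any library but Liver 1, with RLE, total counts, limma-voom and the block, and in a fit of those tissues alone. That of HDAC11 (adjusted p = 0.0261, up to 0.188) was lost without either Forebrain or either Rumen library, with total counts and in a fit of those tissues alone. HDAC5 and HDAC8 passed in none of the comparisons.

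Sirtuins, which use NAD to remove acyl groups, gave 3 lower and 1 higher in liver than in forebrain, of 7 (median log2 fold change -0.84), where 27.3% and 30.5% of all tested genes were called. The lower ones numbered 0 to 5 with 1 library left out, 0 without Forebrain 2 and 5 without Liver 1. SIRT5, the mitochondrial desuccinylase, had 289 and 280.4 CPM in forebrain, 55.9 and 169 CPM in liver and 42.1 and 44.9 CPM in rumen. Forebrain lay above both other tissues, 6.54-fold above rumen (log2 fold change -2.71 ± 0.49 (SE), adjusted p = 0.00519, up to 0.0584), and liver varied between its libraries (log2 fold change -1.34 ± 0.46 (SE), adjusted p = 0.0428, up to 0.141 against forebrain, lost in a fit of those tissues alone and in the older form of the test). SIRT3, the main mitochondrial deacetylase, was 2.23-fold lower in rumen than in forebrain, at 29.6 and 30.6 CPM in forebrain, 20.3 and 15.8 CPM in liver and 14.0 and 13.0 CPM in rumen (log2 fold change -1.15 ± 0.29 (SE), adjusted p = 0.0193, up to 0.138). NBAS, listed as overlapping SIRT3, was at 46.6 and 50.9 CPM in rumen and 36.7 and 35.7 in forebrain. SIRT1, a nuclear deacetylase, had 53.8 and 47.6 CPM in forebrain, 30.0 and 26.7 CPM in liver and 56.1 and 56.0 CPM in rumen, with liver below both other tissues (log2 fold change 0.98 ± 0.23 (SE), adjusted p = 0.0139, up to 0.0935 in rumen against liver). SIRT2, which acts on tubulin, also was lowest in liver, at 133 and 152 CPM in forebrain, 72.7 and 66.6 CPM in liver and 129.9 and 108 CPM in rumen. It was lower in liver than in forebrain (log2 fold change -1.03 ± 0.21 (SE), adjusted p = 0.00583, up to 0.0642) and higher in rumen than in liver (log2 fold change 0.77 ± 0.21 (SE), adjusted p = 0.0248, up to 0.178), the latter call being lost in a fit of those tissues alone. SIRT7, a nucleolar sirtuin that supports ribosomal RNA synthesis, was the only sirtuin called higher in liver than in forebrain, at 15.8 and 8.80 CPM in forebrain, 54.3 and 111 CPM in liver and 13.4 and 14.4 CPM in rumen. It was 6.76-fold higher in liver than in forebrain (log2 fold change 2.76 ± 0.45 (SE), adjusted p = 0.00224, up to 0.0274) and 5.96-fold higher than in rumen (log2 fold change -2.58 ± 0.45 (SE), adjusted p = 0.00424, up to 0.0524). SIRT6, a chromatin deacetylase, had 12.2 and 12.6 CPM in forebrain, 6.70 and 6.10 CPM in liver and 16.2 and 12.3 CPM in rumen. It was 2.23-fold higher in rumen than in liver (log2 fold change 1.15 ± 0.35 (SE), adjusted p = 0.0368, up to 0.209, lost in a fit of those tissues alone, with the block and in the older form), and SIRT4 passed in none of the comparisons.

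All 6 lysine demethylases with a KDM symbol in the table were higher in liver than in forebrain. Their median log2 fold change was 1.71 beside 0.14 over all tested genes, of which 30.5% were called higher. Demethylases under other symbols were not counted. Without Forebrain 1 the count fell to 3 and without Forebrain 2 to 2, which lost KDM3A, KDM5A, KDM6A and KDM8 and left KDM4A and KDM5C. With total counts KDM6A and KDM8 did not pass there, with limma-voom KDM5A and KDM8 did not, and in a fit of those tissues alone KDM8 did not. KDM5C, an X-linked H3K4 demethylase, had 37.3 and 31.0 CPM in forebrain, 162 and 154 CPM in liver and 81.3 and 73.8 CPM in rumen, and its 3 tissues did not overlap. It was 2.27-fold higher in rumen than in forebrain (log2 fold change 1.18 ± 0.22 (SE), adjusted p = 0.00534, up to 0.0703) and 2.04-fold lower in rumen than in liver (log2 fold change -1.03 ± 0.21 (SE), adjusted p = 0.00833, up to 0.0983). KDM4A, which acts on several lysines of H3, had 38.9 and 35.3 CPM in forebrain, 98.2 and 128 CPM in liver and 33.0 and 41.0 CPM in rumen, overlapping between rumen and forebrain and 3.05-fold lower in rumen than in liver (log2 fold change -1.61 ± 0.25 (SE), adjusted p = 0.00272, up to 0.0435). KDM6A, the X-linked H3K27 demethylase, was also highest in liver, at 34.5 and 30.8 CPM in forebrain, 74.4 and 56.9 CPM in liver and 30.8 and 33.6 CPM in rumen (log2 fold change -1.03 ± 0.25 (SE), adjusted p = 0.0167, up to 0.126 in rumen against liver, lost with total counts and in a fit of those tissues alone). KDM3A and KDM5A passed in liver against forebrain alone (log2 fold change 1.36 ± 0.29 (SE), adjusted p = 0.00716, up to 0.0762 for KDM3A and log2 fold change 3.90 ± 0.99 (SE), adjusted p = 0.0140, up to 0.100 for KDM5A). KDM5A was uneven within liver, with 38.9 CPM against 6.42 in Liver 2 and a forebrain mean of 1.51 ± 0.506 (SD, n = 2). KDM8 was lower in forebrain than in both other tissues, at 4.96 and 2.02 CPM in forebrain, 7.67 and 16.2 CPM in liver and 14.8 and 14.5 CPM in rumen (log2 fold change 2.09 ± 0.57 (SE), adjusted p = 0.0254, up to 0.171 in rumen), and its call in liver against forebrain was lost without any library but Liver 1.

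Of the lysine methyltransferases with a KMT symbol, 3 were in the table. KMT5A, which places a single methyl group on lysine 20 of histone H4 in dividing cells, had 7.40 and 6.42 CPM in forebrain, 72.3 and 31.3 CPM in liver and 31.1 and 30.0 CPM in rumen. Forebrain was lowest in both libraries, 4.42-fold below rumen (log2 fold change 2.14 ± 0.46 (SE), adjusted p = 0.0101, up to 0.0869) and 7.48-fold below liver (log2 fold change 2.90 ± 0.46 (SE), adjusted p = 0.00194, up to 0.0278). KMT5B, its relative that adds further methyl groups, had 28.4 and 33.2 CPM in forebrain, 23.7 and 45.3 CPM in liver and 51.7 and 40.6 CPM in rumen and passed in no comparison. KMT2E was 1.81-fold higher in rumen than in liver, at 150.3 and 144 CPM in forebrain, 84.3 and 119 CPM in liver and 180.2 and 187 CPM in rumen (log2 fold change 0.86 ± 0.23 (SE), adjusted p = 0.0231, up to 0.126), but not in a fit of those tissues alone.

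Of the 11 SWI/SNF subunits that matched the symbol rule, 1 was higher and 2 lower in rumen than in forebrain. In rumen against liver 3 were higher and 1 lower, and in liver against forebrain 1 was higher and 3 lower. Over all tested genes these shares were 20.3% and 21.5%, 21.2% and 21.8% and 30.5% and 27.3%. Without either Liver library the lower ones in liver against forebrain rose to 7, and no left-out library took them below 3. The higher ones in rumen against liver ranged from 2 to 5. SMARCD3 (BAF60C), known in mouse from heart and neurons, had 327 and 375 CPM in forebrain, 8.11 and 15.4 CPM in liver and 88.2 and 86.8 CPM in rumen. Forebrain, rumen and liver followed in that order without overlap, rumen 4.01-fold below forebrain (log2 fold change -2.01 ± 0.30 (SE), adjusted p = 0.00229, up to 0.0412) and 7.41-fold above liver (log2 fold change 2.89 ± 0.32 (SE), adjusted p = 0.000682, up to 0.0109). From forebrain to liver the difference was 29.7-fold (log2 fold change -4.89 ± 0.34 (SE), adjusted p = 6.22e-05, up to 0.00142). SMARCD2 (BAF60B), which takes the same place in the complex and is known from granulocyte development, was the reverse in forebrain, at 4.80 and 6.35 CPM in forebrain, 112 and 64.8 CPM in liver and 71.2 and 65.4 CPM in rumen. Rumen was 12.2-fold above forebrain (log2 fold change 3.61 ± 0.37 (SE), adjusted p = 0.000518, up to 0.0130) and liver 15.8-fold (log2 fold change 3.98 ± 0.37 (SE), adjusted p = 0.000197, up to 0.00551). The third of these paralogues, SMARCD1, had 4.39 and 2.53 CPM in forebrain, 13.3 and 1.28 CPM in liver and 2.37 and 4.37 CPM in rumen and passed in no comparison.

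The ATPases of the complex also differed. SMARCA2 (BRM) had 187 and 180.4 CPM in forebrain, 46.5 and 46.5 CPM in liver and 225 and 230.4 CPM in rumen. Liver was 4.90-fold below rumen (log2 fold change 2.29 ± 0.19 (SE), adjusted p = 0.000246, up to 0.00630) and 3.95-fold below forebrain (log2 fold change -1.98 ± 0.19 (SE), adjusted p = 0.000226, up to 0.00505), with the 2 liver libraries nearly equal. SMARCA4 (BRG1), the alternative ATPase, had 209 and 203 CPM in forebrain, 140.4 and 151 CPM in liver and 115 and 130.2 CPM in rumen and was 1.68-fold lower in rumen than in forebrain (log2 fold change -0.75 ± 0.19 (SE), adjusted p = 0.0203, up to 0.167). SMARCE1 (BAF57) was lowest in liver, at 197 and 224 CPM in forebrain, 108 and 92.2 CPM in liver and 199 and 189 CPM in rumen (log2 fold change 0.96 ± 0.20 (SE), adjusted p = 0.00931, up to 0.0812 in rumen against liver). The core scaffold SMARCC2 had 129 and 128 CPM in forebrain, 95.1 and 95.4 CPM in liver and 139 and 138 CPM in rumen and passed in no comparison, like SMARCB1, ARID1A and BRD7. ARID1A differed within liver, at 118 and 289 CPM. BRD9, of the non-canonical complex, was lower in rumen than in liver (log2 fold change -0.70 ± 0.21 (SE), adjusted p = 0.0346, up to 0.203), but not with total-count or upper-quartile scaling, the replicate block or a fit of those tissues alone.

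Subunits of the complex outside the symbol rule, those of its neuronal form first, were read beside these. ACTL6B (BAF53B), the neuronal actin-like subunit, had 74.5 and 86.2 CPM in forebrain, 1.41 and 4.43 CPM in liver and 6.20 and 3.67 CPM in rumen, 16.2-fold lower in rumen than in forebrain (log2 fold change -4.02 ± 0.48 (SE), adjusted p = 0.000958, up to 0.0240). Its counterpart in mouse progenitors, ACTL6A, had 15.4 and 14.2 CPM in forebrain, 24.9 and 16.8 CPM in liver and 24.9 and 26.4 CPM in rumen and passed in no comparison. DPF1 (BAF45B) had 58.4 and 53.3 CPM in forebrain, 0 and 0.385 CPM in liver and 4.13 and 0.936 CPM in rumen (log2 fold change -4.45 ± 0.60 (SE), adjusted p = 0.000884, up to 0.0192 in rumen). SS18L1 (CREST) had 101 and 70.3 CPM in forebrain, 11.5 and 9.76 CPM in liver and 10.0 and 11.003 CPM in rumen (log2 fold change -3.03 ± 0.31 (SE), adjusted p = 0.000497, up to 0.0140), and its paralogue SS18 43.0 and 41.4 CPM in forebrain, 59.1 and 39.7 CPM in liver and 86.5 and 93.2 CPM in rumen (log2 fold change 1.09 ± 0.26 (SE), adjusted p = 0.0155, up to 0.116). PBRM1, of the PBAF complex, was 2.22-fold lower in rumen than in forebrain (log2 fold change -1.15 ± 0.33 (SE), adjusted p = 0.0300, up to 0.173). Further SWI/SNF subunits outside the rule went both ways in rumen against forebrain. Their log2 fold changes were -1.16 for BCL11A, -0.50 for BCL7B, 0.27 for PHF10, 0.66 for DPF2 and 0.72 for BCL7C. Of 13 neuronal markers, 11 were lower in rumen than in forebrain, and the part of neurons in these levels was not tested.

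**Figure D4:**
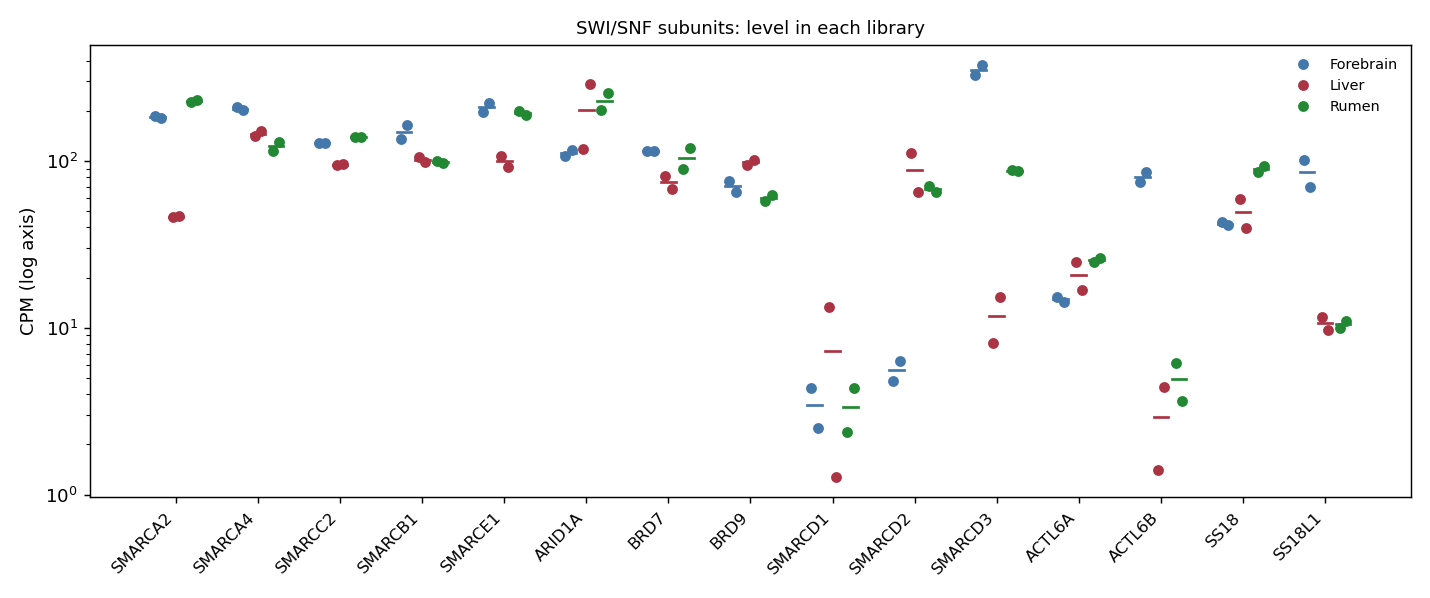
CPM (log axis) of SWI/SNF subunits, the 2 libraries of each tissue as points and their mean as a bar. SMARCD3, ACTL6B and SS18L1 are highest in forebrain, SMARCD2 is lowest there, SS18 is highest in rumen, and SMARCA2 is lowest in liver.

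Among the other ATPases, SMARCA1 (SNF2L), an ISWI motor, was highest in liver, at 187 and 219.7 CPM in forebrain, 914 and 1407 CPM in liver and 167 and 179 CPM in rumen. It was 6.73-fold lower in rumen than in liver (log2 fold change -2.75 ± 0.28 (SE), adjusted p = 0.000467, up to 0.0145) and 5.70-fold higher in liver than in forebrain (log2 fold change 2.51 ± 0.28 (SE), adjusted p = 0.000374, up to 0.00899). SMARCA5 (SNF2H), its paralogue, passed in no comparison, with 216 CPM in Liver 1 and 57.6 in Liver 2. SMARCAD1, which restores silent chromatin after replication, had 81.0 and 82.6 CPM in forebrain, 28.9 and 32.9 CPM in liver and 90.2 and 94.7 CPM in rumen, with liver 2.99-fold below rumen (log2 fold change 1.58 ± 0.21 (SE), adjusted p = 0.00151, up to 0.0221). SMARCAL1, an enzyme of stalled replication forks, passed in no comparison.

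CHD genes gave 2 higher and 0 lower of 7 in rumen against forebrain and 3 higher and 1 lower in liver against forebrain, where 20.3% and 21.5% (rumen) and 30.5% and 27.3% (liver) of all tested genes were called higher and lower. With 1 library left out the higher ones ranged from 0 to 3 in rumen, 0 without either Forebrain library or Rumen 2, and from 1 to 5 in liver, lowest without Forebrain 2 and highest without Liver 2. CHD1, which binds H3K4 methylation at active genes, had 24.6 and 20.2 CPM in forebrain, 66.5 and 62.6 CPM in liver and 47.0 and 55.1 CPM in rumen, and CHD2, mutated in human epilepsy, had 42.4 and 37.5 CPM in forebrain, 88.7 and 189 CPM in liver and 104 and 122.7 CPM in rumen. Forebrain was lowest for both, with rumen 2.28-fold above it for CHD1 (log2 fold change 1.19 ± 0.25 (SE), adjusted p = 0.00877, up to 0.0966) and 2.84-fold for CHD2 (log2 fold change 1.51 ± 0.37 (SE), adjusted p = 0.0168, up to 0.118). CHD4, the NuRD motor, was 1.86-fold higher in liver than in forebrain, at 129 and 127 CPM in forebrain, 223 and 254 CPM in liver and 148 and 158 CPM in rumen (log2 fold change 0.90 ± 0.19 (SE), adjusted p = 0.00702, up to 0.0714), though not with total counts. CHD8, linked to autism in human, had 44.1 and 44.5 CPM in forebrain, 64.7 and 58.7 CPM in liver and 31.4 and 35.9 CPM in rumen. It was lower in rumen than in liver (log2 fold change -0.87 ± 0.23 (SE), adjusted p = 0.0206, up to 0.155), a call lost with total counts and in a fit of those tissues alone, and CHD9 lower in liver than in forebrain (log2 fold change -0.76 ± 0.22 (SE), adjusted p = 0.0234, up to 0.165). CHD6 and CHD1L passed in none of the comparisons.

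The largest fold of all 79 genes was that of ARID3A, a DNA-binding factor of fetal haematopoiesis and B cells. It had 0.813 and 0 CPM in forebrain, 78.3 and 18.6 CPM in liver and 6.58 and 8.51 CPM in rumen. Liver was above forebrain by 6.94 ± 1.13 (SE) on the log2 scale (adjusted p = 0.00163, up to 0.0247), and rumen above forebrain by 4.26 ± 1.29 (adjusted p = 0.0318, up to 0.180). These folds depend on the 10 reads of Forebrain 1, since Forebrain 2 had 0, and without Forebrain 1 the fitted values rose to 12.37 and 9.71, which are no bounds. With limma-voom the rumen call was lost. ARID3B, its paralogue, was 19.7-fold higher in liver than in forebrain, at 0.569 and 0.794 CPM in forebrain, 20.2 and 7.39 CPM in liver and 2.30 and 0.780 CPM in rumen (log2 fold change 4.30 ± 0.83 (SE), adjusted p = 0.00432, up to 0.0480). Liver also held the erythroid markers, at 150111 and 58389 CPM against 549 and 458 in rumen and 463 and 499.8 in forebrain, with HBE1 and HBE2 at 0 in rumen and in forebrain, and their part in ARID3A and ARID3B was not tested.

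ARID5A, an RNA-binding factor of inflammation, had 2.76 and 2.67 CPM in forebrain, 7.67 and 8.67 CPM in liver and 8.88 and 16.1 CPM in rumen, with rumen 4.58-fold above forebrain (log2 fold change 2.19 ± 0.48 (SE), adjusted p = 0.0110, up to 0.0940). KANSL3, which overlaps ARID5A, was also lowest in forebrain, at 2.93 and 3.75 CPM, against 12.9 and 14.1 in rumen, so ARID5A is uncertain. ARID4A, of the Sin3 complex, had 81.7 and 74.3 CPM in forebrain, 56.3 and 50.0 CPM in liver and 40.7 and 29.4 CPM in rumen. It was 2.22-fold lower in rumen than in forebrain (log2 fold change -1.15 ± 0.25 (SE), adjusted p = 0.0110, up to 0.113), while its partner ARID4B passed in none of the comparisons. BRD2, which binds acetylated histones, had 149 and 142 CPM in forebrain, 159 and 215 CPM in liver and 145 and 140.1 CPM in rumen and passed in no comparison. BRD3 had 15.3 and 11.5 CPM in forebrain, 91.3 and 21.1 CPM in liver and 18.7 and 17.3 CPM in rumen. It was higher in liver than in forebrain (log2 fold change 2.07 ± 0.65 (SE), adjusted p = 0.0307, up to 0.165), a call lost without any library but Liver 2, with total counts, with limma-voom and in a fit of those tissues alone.

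Reading both comparisons of a tissue together, 16 genes were lower in forebrain than in liver and rumen (20.3%, against 12.4% of all tested genes) and 3 higher (3.80% against 16.5%). The higher ones were HDAC2, SIRT5 and SMARCD3. The 16 fell to 5 and 4 without Forebrain 1 and 2 and to 7 and 5 without Rumen 1 and 2, and rose to 25 without Liver 1. The 3 fell to 1 with any 1 Forebrain or Rumen library left out and rose to 11 and 5 without Liver 1 and 2. Liver was above both others for 13 genes (16.5% against 16.9%) and below both for 9 (11.4% against 12.9%). These fell to 5 and 4 without either Rumen library, and rose to 21 and 14 without Liver 1 and 26 and 15 without Liver 2. With edgeR's test rumen was below both for 0 genes, against 4.22% of all genes, and for 2, RNF2 and SIRT5, at an unadjusted p of 0.05 in both comparisons. DESeq2 put the count at 1. At an absolute log2 difference of 2 or more in both comparisons, liver-high genes were ARID3A, ARID3B, DNMT1, DNMT3B, HDAC6, SIRT7 and SMARCA1. Forebrain-low genes at that size were ARID3A, CBX2, HDAC1, KMT5A, SMARCD2 and UHRF1, and SMARCD3 was both the only forebrain-high and the only liver-low one. In 27 of the 79 genes no comparison passed, and in 7 all 3 did. The shares over all tested genes are not given for these counts, which describe the list alone.

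Ratios of paralogues within a library were taken after adding 0.5 CPM to each. For genes well above 0.5 CPM they hardly depend on the library's scaling, and gene length cancels in their differences between tissues. Near 0.5 CPM the added value weighs on the ratio and neither holds. That was so for DNMT3B in forebrain and rumen and for CBX2, ARID3A and ARID3B in forebrain. Of 36 pairs listed, 16 had both genes in the table. With 2 against 2 libraries an exact permutation test cannot go below 0.333, so these ratios are given without a test. The log2 ratio of SMARCD3 to SMARCD2 was 5.95 and 5.78 in forebrain, 0.31 and 0.41 in rumen and -3.71 and -2.04 in liver, a difference of -8.74 from forebrain to liver that was the largest of all pairs. That of HDAC1 to HDAC2 was -4.02 and -3.97 in forebrain, -0.39 and -0.57 in rumen and 1.16 and 1.72 in liver. It was higher by 3.51 from forebrain to rumen and by 5.43 to liver, with no overlap between any tissues. DNMT3A to DNMT3B gave 5.79 and 6.22 in forebrain, 6.78 and 7.44 in rumen and 0.66 and 2.94 in liver, lowest in liver. EZH1 to EZH2 gave 0.20 and 0.55 in forebrain, -0.62 and -1.08 in rumen and -1.86 and -3.08 in liver, highest in forebrain and lowest in liver, without overlap.

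SMARCA2 to SMARCA4 gave -0.16 and -0.17 in forebrain, 0.97 and 0.82 in rumen and -1.59 and -1.69 in liver, with the libraries of a tissue close together and all 3 tissues apart. SMARCA1 to SMARCA5 gave 0.91 and 1.54 in forebrain, 1.06 and 1.38 in rumen and 2.08 and 4.599 in liver, apart in liver only. RING1 to RNF2 stood at -0.20 and 0.60 in forebrain, 2.72 and 3.02 in rumen and 0.93 and 3.11 in liver, and BMI1 to PCGF2 at -2.31 and -2.87 in forebrain, -6.32 and -5.22 in rumen and -0.60 and -3.71 in liver. In the first, liver overlapped rumen, and in the second it overlapped forebrain, with rumen lowest. CBX2 to CBX7 was higher by 2.31 in liver than in forebrain, and HDAC11 to HDAC6 by 2.00 in rumen than in liver. SMARCD1 to SMARCD2 gave -0.12 and -1.18 in forebrain, -4.64 and -3.76 in rumen and -3.03 and -5.19 in liver, highest in forebrain. ARID3A to ARID3B differed by 2.62 from forebrain to rumen and rests on few reads. Of the 16 pairs, 6 differed by at least 2 without overlap in rumen against forebrain. The same held for 6 in rumen against liver and 8 in liver against forebrain. No share over other gene pairs was taken, so these counts describe the listed pairs alone.

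**Figure D5:**
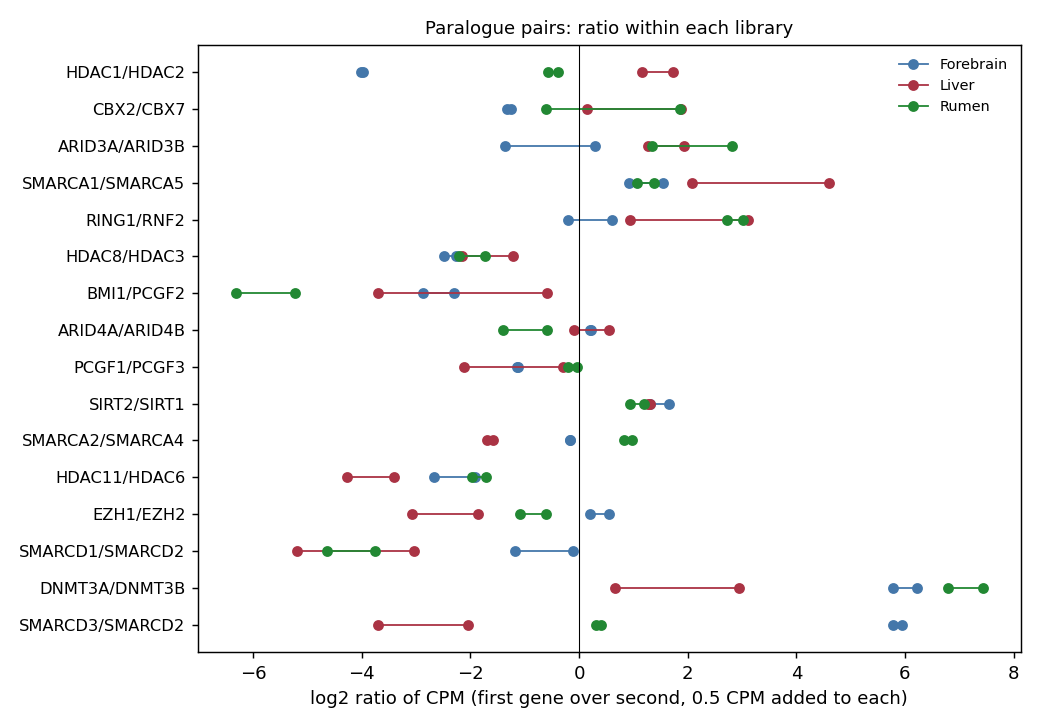
Log2 ratio of CPM of the first to the second gene of each paralogue pair (0.5 CPM added to each), joined points for the 2 libraries of a tissue. For HDAC1/HDAC2 forebrain sits at -4.02 and -3.97, rumen below 0 and liver above it. For SMARCD3/SMARCD2 the order is reversed.

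Over the 6 libraries, the chromatin genes whose log2 CPM followed EZH2 most closely were KDM3A (r = 0.990), CHD1L (r = 0.958), CHD4 (r = 0.955), KDM5C (r = 0.941) and HDAC6 (r = 0.933). Those nearest to ARID3A were CBX2 (r = 0.976), KMT5A (r = 0.974), KDM5C (r = 0.965), CHD1 (r = 0.956) and UHRF1 (r = 0.950). These Pearson correlations describe libraries of 3 tissues that share at most 2 fetuses, and have no test.

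Further chromatin genes outside the symbol rule, 101 of 142 listed being in the table and 99 tested, were read from the same fit. Over all tested genes 20.3% and 21.5% were called higher and lower in rumen against forebrain, 21.2% and 21.8% in rumen against liver and 30.5% and 27.3% in liver against forebrain. Of the 99 outside genes, 18 were higher and 11 lower in rumen against forebrain, 15 and 15 in rumen against liver, and 31 and 17 in liver against forebrain. Median log2 fold changes were 0.13, -0.15 and 0.32. The H3K9 methyltransferase SUV39H1 was far higher in liver, at 8.21 and 6.57 CPM in forebrain, 90.6 and 117 CPM in liver and 9.41 and 13.0 CPM in rumen (log2 fold change 3.82 ± 0.32 (SE), adjusted p = 0.000122, up to 0.00415). GADD45A, a stress gene linked to DNA demethylation, had 12.5 and 9.67 CPM in forebrain, 100.4 and 135 CPM in liver and 38.3 and 30.4 CPM in rumen (log2 fold change 3.41 ± 0.30 (SE), adjusted p = 0.000156, up to 0.00475). BAZ1A, the partner of SMARCA5 in the ACF complex, was 4.88-fold higher in rumen than in forebrain, at 13.4 and 10.6 CPM in forebrain, 69.2 and 55.3 CPM in liver and 53.6 and 63.5 CPM in rumen (log2 fold change 2.29 ± 0.28 (SE), adjusted p = 0.00105, up to 0.0215). INO80B, a subunit of the INO80 remodeler, was 3.60-fold higher there (log2 fold change 1.85 ± 0.32 (SE), adjusted p = 0.00430, up to 0.0542).

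RCOR2, a corepressor that works with KDM1A, was scarce in liver, at 23.9 and 23.5 CPM in forebrain, 4.02 and 4.17 CPM in liver and 22.3 and 28.8 CPM in rumen (log2 fold change 2.64 ± 0.34 (SE), adjusted p = 0.00121, up to 0.0165 in rumen against liver). PRDM1, a repressor of the PR domain family, was 4.29-fold higher in rumen than in liver (log2 fold change 2.10 ± 0.38 (SE), adjusted p = 0.00495, up to 0.0458), and the histone chaperone DAXX 6.36-fold lower (log2 fold change -2.67 ± 0.28 (SE), adjusted p = 0.00051, up to 0.0134). PRMT8 and PRDM8, both known from brain, had their highest levels in forebrain. PRMT8 stood at 11.3 and 13.9 CPM in forebrain, 0.0744 and 0.385 CPM in liver and 1.07 and 2.34 CPM in rumen and was lower in rumen (log2 fold change -2.88 ± 0.52 (SE), adjusted p = 0.00372, up to 0.0569). PRDM8 stood at 26.5 and 10.8 CPM in forebrain, 0.447 and 0.385 CPM in liver and 3.83 and 3.28 CPM in rumen (log2 fold change -2.38 ± 0.54 (SE), adjusted p = 0.0110, up to 0.0971). The remaining largest changes of this list were GADD45B, ING5, PHF19 and HDGF in liver and GATAD2A and BAZ2A outside forebrain. Of these, ING5, PHF19 and HDGF lay over 4-fold apart within liver. ING5 had 15.2 and 2.50 CPM there, PHF19 22.2 and 4.62 CPM and HDGF 465 and 73.8 CPM. The GATAD2A call in rumen against forebrain was lost with RLE, total counts and limma-voom and without the filter. Both HDGF calls, against rumen and against forebrain, were lost with total counts, limma-voom and a fit of those tissues alone. Upper-quartile scaling also lost the one against rumen. The PHF19 call against forebrain was lost with limma-voom.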

How the data were processed

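Forebrain, liver and rumen gave 2 poly(A) RNA libraries each (NEBNext Ultra, per the labels' protocols). The submitters' processing notes name HISAT2 2.0.5, featureCounts 1.5.0-p3 and edgeR 3.18.1. The deposited values used are raw counts per gene symbol, with no scaling, for 14179 symbols. The sources used here do not give the genome build, annotation or strand setting, and no coordinates are printed. By name, 78 of the 79 genes were in a RefSeq table (ARS-UCD2.0). Comparing whole gene spans rather than exons, 18 of them overlap another gene. Without strand, how many of their reads are shared is unknown.

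Counts were tested in R 4.3.3 with edgeR 4.0.16 (filterByExpr, TMM factors 0.812 to 1.20, 1 mean per tissue, quasi-likelihood test in the form with adjusted deviances, 3 residual degrees of freedom) and Benjamini-Hochberg adjustment over 11478 genes, at 0.05. Limma 3.58.1 (voom) and DESeq2 1.42.0 were alternatives. The SE is the unshrunk log2 fold change over the root of the F statistic. The model was run on simulated counts, with the same spread per gene in all tissues and changes in rumen only. Only rumen against forebrain was read there. That run does not test comparisons with liver, whose real libraries differed more. Library depth ran from 10271024 to 18528958 counts.

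Named by rule were all DNA methylation and PRC2 genes that matched the symbol rule, and the 10 largest calls per direction and comparison. Also named were genes at a log2 difference of 2 in both comparisons of a tissue, and paralogues whose mean log2 ratio differed by 2 without overlap. The same held for the 5 closest correlates of EZH2 and of the gene of largest fold. Of the other chromatin genes, the 5 largest calls per direction and comparison were named. All remaining genes were named after their values were seen. They were named to account for every member, as paralogues (ACTL6A, SS18) or as further subunits (BCL7B, BCL7C, BCL11A, DPF2, PBRM1, PHF10). A planned search for motifs in promoters was not run, since no sequence was at hand. The gene rule, lists and pairs were chosen with earlier results of these data known.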

Additional observations from a re-analysis of the deposited data

How the results depend on the processing

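The counts rest on 2 libraries per tissue and, with 1 left out, varied widely. In rumen against forebrain the higher genes numbered 4 to 30 and the lower 1 to 11. In rumen against liver they numbered 5 to 21 and 5 to 30, and in liver against forebrain 15 to 36 and 6 to 24. Genes apart in both comparisons numbered 0 to 8 (rumen high), 0 to 3 (rumen low), 5 to 26 (liver high), 4 to 15 (liver low), 1 to 11 (forebrain high) and 4 to 25 (forebrain low). A fit of only the tissues compared gave 33 higher genes in rumen against forebrain and 10 lower in rumen against liver, and has no count for the combined patterns. With total counts, 18 were higher in rumen against liver, 23 lower in liver against forebrain and 16 liver low. Lower genes in liver against forebrain were 18 with upper-quartile scaling and 19 with DESeq2. Rumen-high genes were 2 with RLE, total counts, DESeq2 and limma-voom and 3 with upper-quartile scaling. Forebrain-high genes were 6 with RLE, 7 with total counts and DESeq2, and 5 with upper-quartile scaling and limma-voom. DESeq2 gave 1 rumen-low gene. The cause of these shifts was not tested. Without a filter, all counts stayed within 1.5 times, as they did in the older form of the quasi-likelihood test, an alternative chosen after seeing the data.

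Same-numbered libraries of different tissues did not deviate together over the tested genes (correlations of 0.0794, -0.0757 and 0.00844). Spread within each tissue can hide a shared animal, so these values do not decide whether the numbers pair them. With the replicate block, 16 genes were higher and 8 lower in rumen against forebrain, 10 and 14 in rumen against liver and 28 and 11 in liver against forebrain. The combined patterns with that block gave 1 rumen-high, 0 rumen-low, 12 liver-high, 9 liver-low, 3 forebrain-high and 14 forebrain-low genes.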
